A study of Mus musculus with 8 samples.

Results

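Hox genes encode the homeodomain transcription factors that give positional identity along the body axis, and they lie in 4 clusters in the mouse genome. Their expression was followed here in mouse embryonic stem cell cultures that differed at Gtf2i or Hprt. The genes were chosen by name: every probe set whose only annotated symbol was a Hox gene of cluster A, B, C or D was taken, and each gene was represented by its probe set with the highest mean signal over the 8 arrays. This gave 33 of the 39 Hox genes, out of 18193 genes with such a probe set, from 48 Hox probe sets, and 11 of the genes had several. The HoxA cluster on chromosome 6 (members between chr6:52162417-52260880, build GRCm38) held 9 of them. The HoxB cluster on chromosome 11 (chr11:96194316-96368254) held 9, the HoxC cluster on chromosome 15 (chr15:102921131-103036856) held 7, and the HoxD cluster on chromosome 2 (chr2:74668225-74765142) held 8. The other Hox genes were not analysed here.

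Total RNA of embryonic stem cell lines was hybridised to 8 Affymetrix mouse arrays, in 4 groups of 2. The exon 2 mutant was a gene-targeted line made in R1 cells, with the genotype Δexon2/+ at Gtf2i. The trap line was a gene-trap line made in AB2.2 cells, with the genotype HPRT -/-:GTF2I +/-. The Hprt knockout had the genotype HPRT -/-, without a Gtf2i mutation in its label. The wild-type group had no mutation in its label, and its line was not named. Gtf2i encodes the transcription factor TFII-I and Hprt a purine salvage enzyme. All cultures received leukaemia inhibitory factor and grew on a monolayer of feeder cells in serum replacement medium, so that the RNA of each array can hold RNA of both stem cells and feeder cells. Each genotype was represented by 1 line, and the arrays of the exon 2 mutant were entered in the archive separately from the rest, so that line, any batch and genotype cannot be told apart. The labels number biological replicates but do not describe separate cultures, and p-values therefore measure only the spread between these arrays.

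Values are log2 intensities after RMA, where a difference of 1 is a change of 2-fold. The medians of the 8 arrays lay between 5.96 and 6.02, the arrays of a group correlated at 0.997 to 0.998 over all genes tested, and the number of arrays limits the precision. Stem cell factors were well above the filter level on every array: Pou5f1 lay between 12.74 and 13.46, Nanog between 12.15 and 12.53 and Sox2 between 12.30 and 12.76 on the 8 arrays. Hprt read 12.25 and 12.25 on the exon 2 mutant arrays, 10.76 and 10.72 on the trap arrays, 10.05 and 10.02 on the Hprt knockout arrays and 12.09 and 12.08 on the wild-type arrays. Gtf2i read 10.45 and 10.51 in the exon 2 mutant, 10.11 and 10.07 in the trap line, 10.92 and 10.89 in the Hprt knockout and 10.10 and 10.14 in wild-type. Hprt was lower than in wild-type on the arrays labelled Hprt-deficient, but far above the array medians. Gtf2i was not below wild-type in the exon 2 mutant and lay near it in the trap line, so that its signal does not check these labels, by which the groups are named throughout. Where the probes lie relative to the mutations was not analysed here.

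Within a cluster, Hox genes are switched on in the order in which they lie, and their paralogue number runs from the anterior to the posterior end of the body. In undifferentiated embryonic stem cells the clusters are held silent by Polycomb complexes and opened by trithorax proteins and retinoic acid signalling during differentiation. Fibroblasts keep a Hox code of the body region from which they came. In a culture with a feeder layer, fewer cells of a type and less RNA per cell cannot be told apart.

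The sequence just upstream of the start site was set out, from the RefSeq table of build GRCm38.p6, for the tested genes of each cluster with the largest differences between the Hprt knockout and wild-type among those in the table. HoxB and HoxC had only Hoxb4 and Hoxc4 to show there. The table held 21 promoters of 19 of the 33 genes, and each sequence printed here is the 250 bases before the start, 5′ to 3′ on the strand of the gene. Capitals mark AGGTCA, the core motif of retinoic acid receptors, or CCAAT, the box bound by the factor NF-Y, each searched on both strands, where the other strand reads TGACCT or ATTGG. The windows are chr6:52227371-52227620 (minus strand) for Hoxa9, chr6:52240855-52241104 (minus strand) for the outer of the Hoxa10 starts, chr11:96318017-96318266 (plus strand) for Hoxb4, chr15:103034145-103034394 (plus strand) for Hoxc4, chr2:74691641-74691890 (plus strand) for Hoxd10 and chr2:74667975-74668224 (plus strand) for Hoxd13. Those of Hoxc4 and Hoxd10 lie inside the spans of these genes (chr15:103018097-103036856 and chr2:74684273-74695106), before an inner start.
Hoxa9: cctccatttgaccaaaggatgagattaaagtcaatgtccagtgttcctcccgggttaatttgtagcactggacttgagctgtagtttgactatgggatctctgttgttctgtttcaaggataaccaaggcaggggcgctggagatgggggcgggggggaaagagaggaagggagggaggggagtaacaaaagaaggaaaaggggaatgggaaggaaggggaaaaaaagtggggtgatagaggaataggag
Hoxa10: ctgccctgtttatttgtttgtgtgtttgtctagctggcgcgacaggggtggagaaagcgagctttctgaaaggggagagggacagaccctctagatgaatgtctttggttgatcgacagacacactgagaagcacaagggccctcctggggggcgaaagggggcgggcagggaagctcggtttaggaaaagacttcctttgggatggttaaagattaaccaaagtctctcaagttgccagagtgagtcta
Hoxb4: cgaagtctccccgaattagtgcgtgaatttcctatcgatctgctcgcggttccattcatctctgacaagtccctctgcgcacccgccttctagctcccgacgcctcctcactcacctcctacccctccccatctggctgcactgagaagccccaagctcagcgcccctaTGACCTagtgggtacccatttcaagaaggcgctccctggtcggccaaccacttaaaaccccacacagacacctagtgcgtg
Hoxc4: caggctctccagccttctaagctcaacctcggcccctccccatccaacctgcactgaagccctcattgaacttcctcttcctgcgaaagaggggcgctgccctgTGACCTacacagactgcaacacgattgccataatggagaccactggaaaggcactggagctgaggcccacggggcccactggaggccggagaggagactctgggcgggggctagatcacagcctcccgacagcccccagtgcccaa
Hoxd10: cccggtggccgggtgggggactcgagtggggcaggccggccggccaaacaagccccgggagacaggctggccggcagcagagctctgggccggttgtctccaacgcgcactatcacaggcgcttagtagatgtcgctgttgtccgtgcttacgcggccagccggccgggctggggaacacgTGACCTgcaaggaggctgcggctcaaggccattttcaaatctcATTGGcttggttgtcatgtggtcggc
Hoxd13: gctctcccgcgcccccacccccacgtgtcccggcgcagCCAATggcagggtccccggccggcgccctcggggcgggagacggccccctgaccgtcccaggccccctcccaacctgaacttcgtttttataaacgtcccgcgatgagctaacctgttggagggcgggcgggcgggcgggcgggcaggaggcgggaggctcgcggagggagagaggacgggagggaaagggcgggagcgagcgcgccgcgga

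AGGTCA stood in 5 of the 21 Hox promoters (Hoxb4, Hoxc4, Hoxd3, Hoxd8 and Hoxd10), and in 14% of the 32851 promoters of the table. For Hoxc4 and Hoxd10 the window was that of an inner start. CCAAT stood in 11 of the 21, and in 33.8% of all promoters. The windows of Hoxa9 and of the outer Hoxa10 start held neither, and CCAAT stood in that of the inner Hoxa10 start, not printed. TATAAA stood in 2 Hox promoters, Hoxd13 and the inner Hoxa10 start, and in 12.4% of all promoters. TGATNNAT, a motif of Hox proteins bound with their Pbx partners, stood in 3 Hox promoters and in 7.68% of all. The Hox windows held a median of 13 CG dinucleotides, from 2 to 35, where the median of all promoters was 6. A match describes the letters of these windows and does not show binding.

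The filter for testing was a signal above an array's 40th percentile, log2 5.35 on average, on at least 2 of the 8 arrays. Of the 33 Hox genes 25 met this and 8 did not. Hoxb5 met it only through the 2 wild-type arrays, so its lower values against wild-type are tied to the filter. Hoxb13 met it on both Hprt knockout arrays and exon 2 mutant replicate 2, and would not have met it without the Hprt knockout. Its higher values in the Hprt knockout, against any group, are therefore tied to the filter too. Above the percentile on all 8 arrays were 14 genes: Hoxa3, Hoxa5, Hoxa7, Hoxa11, Hoxb2, Hoxb4, Hoxb7, Hoxb9, Hoxc4, Hoxc6, Hoxc9, Hoxd8, Hoxd9 and Hoxd13. On both arrays of the group, 20 of the 33 lay above it in the exon 2 mutant, 22 in the trap line, 16 in the Hprt knockout and 23 in wild-type. Hoxa9, Hoxa10, Hoxb3, Hoxb6 and Hoxc8 lay above it on both arrays of the exon 2 mutant, the trap line and wild-type and below it on both Hprt knockout arrays. The plot of signal by cluster shows these genes on every array.

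**Figure D1:**
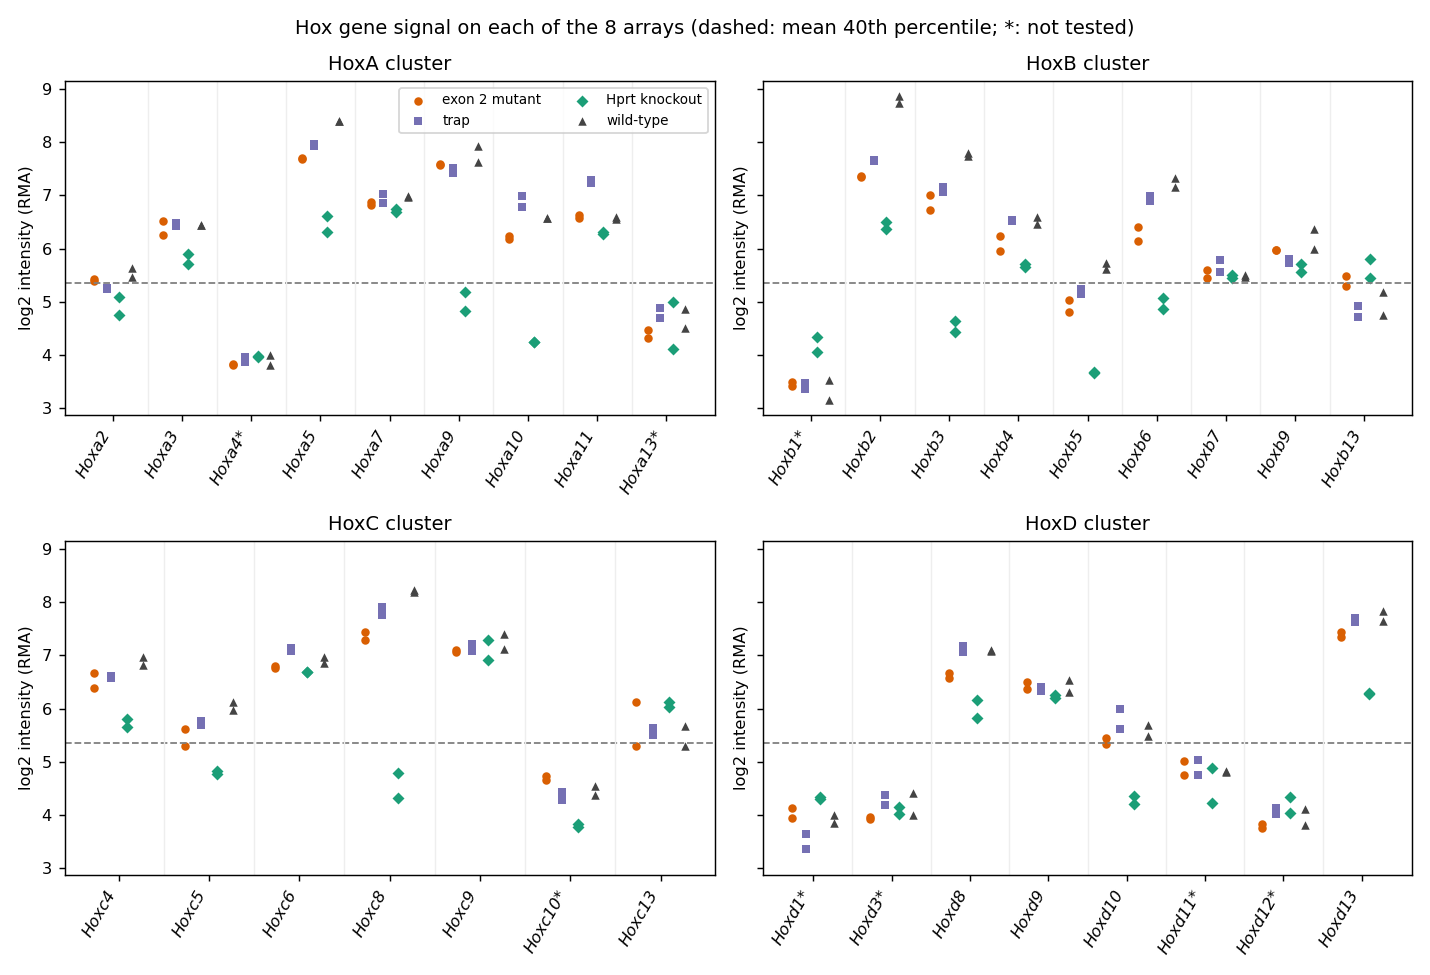
Log2 intensity (y axis) of the 33 Hox genes (x axis, by cluster and paralogue number) on the 8 arrays, with a symbol per array for the exon 2 mutant, trap, Hprt knockout and wild-type groups. The Hprt knockout arrays lie lowest for Hoxc8, at 4.32 and 4.79, where the wild-type arrays lie at 8.18 and 8.23, and the dashed line marks the mean 40th percentile of 5.35.

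Among the anterior genes, of paralogue groups 1 to 3, Hoxb2 and Hoxb3 differed most between groups. Hoxb2, which patterns the hindbrain segment of the facial nerve, read 7.34 and 7.36 in the exon 2 mutant, 7.66 and 7.64 in the trap line, 6.37 and 6.50 in the Hprt knockout and 8.86 and 8.73 in wild-type. No array of any group overlapped with another group, and wild-type was highest. Hoxb3, a hindbrain and pharyngeal arch gene, read 7.0 and 6.73 in the exon 2 mutant, 7.06 and 7.16 in the trap line, 4.44 and 4.63 in the Hprt knockout and 7.73 and 7.79 in wild-type. The Hprt knockout stood apart from the other groups. Hoxa3, needed for thymus and parathyroid, read 6.51 and 6.26 in the exon 2 mutant, 6.47 and 6.42 in the trap line, 5.70 and 5.90 in the Hprt knockout and 6.45 and 6.44 in wild-type. Hoxa2, the selector of the second branchial arch, read 5.39 and 5.42, 5.24 and 5.25, 4.76 and 5.09, and 5.46 and 5.63 in the same groups, exon 2 mutant, trap, Hprt knockout and wild-type. Both HoxA genes were lowest in the Hprt knockout, by a smaller margin than both HoxB genes.

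The middle genes, of paralogue groups 4 to 8, mark neck and thorax, and held the gene with the widest range. Hoxc8, which acts in thoracic vertebrae and brachial motor neurons, read 7.44 and 7.29 in the exon 2 mutant, 7.76 and 7.90 in the trap line, 4.32 and 4.79 in the Hprt knockout and 8.18 and 8.23 in wild-type. Only its Hprt knockout arrays lay below the 40th percentile. Hoxa5, a lung and cervical vertebra gene, read 7.69 and 7.70 in the exon 2 mutant, 7.96 and 7.92 in the trap line, 6.31 and 6.62 in the Hprt knockout and 8.39 and 8.39 in wild-type. Hoxb6, a thoracic gene, read 6.41 and 6.14 in the exon 2 mutant, 6.89 and 6.99 in the trap line, 5.07 and 4.86 in the Hprt knockout and 7.15 and 7.33 in wild-type. Its neighbour Hoxb5 read 5.04 and 4.81 in the exon 2 mutant, 5.24 and 5.14 in the trap line, 3.67 and 3.69 in the Hprt knockout and 5.73 and 5.61 in wild-type. In Hoxa5, Hoxb5, Hoxb6 and Hoxc8 the order was the same: Hprt knockout lowest, then exon 2 mutant, trap line and wild-type, with no overlap between neighbouring groups.

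Other middle genes had narrower ranges. Hoxb4, known for expanding blood stem cells, read 5.95 and 6.24 in the exon 2 mutant, 6.54 and 6.51 in the trap line, 5.66 and 5.71 in the Hprt knockout and 6.46 and 6.59 in wild-type. Hoxc4 read 6.66 and 6.38 in the exon 2 mutant, 6.57 and 6.62 in the trap line, 5.66 and 5.80 in the Hprt knockout and 6.81 and 6.96 in wild-type. The trap arrays lay within the range of the wild-type arrays for Hoxb4 and below them for Hoxc4. Hoxc5 read 5.29 and 5.62 in the exon 2 mutant, 5.70 and 5.77 in the trap line, 4.77 and 4.83 in the Hprt knockout and 6.13 and 5.97 in wild-type. Hoxd8 read 6.67 and 6.57 in the exon 2 mutant, 7.07 and 7.18 in the trap line, 5.83 and 6.17 in the Hprt knockout and 7.08 and 7.10 in wild-type. The Hprt knockout arrays were the lowest of both. Hoxa7 lay between 6.68 and 7.03, Hoxc6 between 6.68 and 7.13 and Hoxb7 between 5.44 and 5.78 on the 8 arrays, the narrowest spans among the middle genes tested.

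The posterior genes, of paralogue groups 9 to 13, pattern the lumbar and tail region, the limbs and the genital tract. Hoxa9, which also maintains blood stem cells, read 7.57 and 7.59 in the exon 2 mutant, 7.41 and 7.52 in the trap line, 4.83 and 5.19 in the Hprt knockout and 7.63 and 7.92 in wild-type. Hoxa10, a uterus and lumbar vertebra gene, read 6.18 and 6.24 in the exon 2 mutant, 6.78 and 6.98 in the trap line, 4.25 and 4.25 in the Hprt knockout and 6.58 and 6.58 in wild-type. The next gene along the cluster, Hoxa11, which acts in forearm and kidney, had a flatter pattern, at 6.63 and 6.57 in the exon 2 mutant, 7.23 and 7.28 in the trap line, 6.28 and 6.31 in the Hprt knockout and 6.60 and 6.55 in wild-type. Both Hoxa10 and Hoxa11 were highest in the trap line.

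Hoxd13, the digit gene, read 7.43 and 7.35 in the exon 2 mutant, 7.63 and 7.71 in the trap line, 6.27 and 6.29 in the Hprt knockout and 7.65 and 7.83 in wild-type. Hoxd10, of lumbar motor neurons, read 5.44 and 5.33 in the exon 2 mutant, 5.61 and 6.00 in the trap line, 4.20 and 4.36 in the Hprt knockout and 5.69 and 5.49 in wild-type. Both were lowest in the Hprt knockout. Hoxb13, a tail and prostate gene, read 5.30 and 5.48 in the exon 2 mutant, 4.72 and 4.93 in the trap line, 5.81 and 5.45 in the Hprt knockout and 4.75 and 5.18 in wild-type, and lay above the 40th percentile on both arrays in the Hprt knockout alone. Hoxb9 read 5.97 and 5.97 in the exon 2 mutant, 5.73 and 5.80 in the trap line, 5.71 and 5.56 in the Hprt knockout and 5.99 and 6.37 in wild-type. Hoxc9 lay between 6.92 and 7.40, Hoxd9 between 6.20 and 6.53 and Hoxc13 between 5.29 and 6.12 on the 8 arrays, and none of these 3 genes passed the test in any comparison.

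The Hprt knockout was set against wild-type. Most Hox genes were lower in it: 20 of the 25 tested fell and Hoxb13 alone rose, where 25.1% of the 13819 genes tested fell and 46.4% rose (71.5% changed in all). Over all 33 genes the median difference was -0.62, from -3.65 to 0.85, beside 0.11 over all 18193 genes. The measured log2 difference was -3.65 ± 0.15 (SE) for Hoxc8 (limma adjusted p = 8.92e-07) and -3.23 ± 0.11 for Hoxb3 (adjusted p = 3.3e-07). The differences were -2.76 ± 0.14 for Hoxa9, -2.36 ± 0.07 for Hoxb2, -2.33 ± 0.07 for Hoxa10 and -2.27 ± 0.12 for Hoxb6. They ran from -1.99 to -1.09 for Hoxb5, Hoxa5, Hoxd13, Hoxd10, Hoxc5, Hoxc4 and Hoxd8, and were smaller, from -0.84 to -0.23, for Hoxb4, Hoxa3, Hoxa2, Hoxb9, Hoxa11, Hoxa7 and Hoxc6. The fall of Hoxb5 is tied to the filter. Hoxb13 rose by 0.67 ± 0.18 (adjusted p = 0.011), a rise tied to the filter. Hoxc8, Hoxb3, Hoxa9, Hoxa10, Hoxb6, Hoxb5, Hoxd10, Hoxc5 and Hoxa2 lay below the 40th percentile on both Hprt knockout arrays. No detection calls were used, so how far their true levels fell, and in which order, cannot be read from these differences.

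The other tested genes did not pass, with Hoxb7 at -0.01, Hoxc9 at -0.15, Hoxd9 at -0.19 and Hoxc13 at 0.60. The 95% interval of the difference ran from -0.22 to 0.20 for Hoxb7, from -0.49 to 0.19 for Hoxc9, from -0.40 to 0.02 for Hoxd9 and from -0.01 to 1.2 for Hoxc13. The feeder fibroblast markers moved with the Hox genes. All 27 on the array fell, with a median of -4.69. Their summed linear intensity was 15900 on both Hprt knockout arrays and 207000 to 208000 on the wild-type arrays. Lum, a matrix proteoglycan of fibroblasts, read 5.21 and 5.26 in the Hprt knockout, below the 40th percentile, and 12.45 and 12.47 in wild-type. The part of the feeder cells in the Hox differences was not tested. Single arrays decided some calls. Hoxa7 did not pass without Hprt knockout replicate 1 (adjusted p = 0.0608) or wild-type replicate 1 (0.0535), and Hoxb13 not without the same arrays (0.0624 and 0.0628). Without wild-type replicate 2 Hoxc6 did not pass (0.0512) and Hoxd9 fell (0.0233). Of all genes called, 64.9% were higher, and 49.9% under cyclic loess scaling, which shifts the median of all genes by -0.16.

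The trap line was set against the Hprt knockout, which shares its Hprt genotype, to ask what differs with the gene-trap allele of Gtf2i. Most Hox genes were higher in the trap line: 19 of the 25 tested rose and Hoxb13 alone fell, where 26.6% of all genes tested rose and 41.8% fell (68.4% changed). The median over all 33 was 0.56, from -0.82 to 3.28, beside -0.10 over all genes. The measured log2 difference was 3.28 ± 0.15 for Hoxc8 (adjusted p = 1.8e-06), 2.63 ± 0.07 for Hoxa10 (adjusted p = 1.67e-07), 2.58 ± 0.11 for Hoxb3 and 2.45 ± 0.14 for Hoxa9, each against dim Hprt knockout arrays below the 40th percentile. Hoxb6 rose by 1.97 ± 0.12, and Hoxd10, Hoxb5, Hoxa5, Hoxd13, Hoxb2 and Hoxd8 by 1.52 to 1.12. Hoxb13 fell by 0.81 ± 0.18 (adjusted p = 0.005), a difference tied to the filter.

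Rises of under 1 were measured for Hoxa11 (0.96), Hoxc5 (0.93), Hoxc4 (0.87), Hoxb4 (0.84), Hoxa3 (0.64), Hoxc6 (0.42), Hoxa2 (0.32) and Hoxa7 (0.23). Hoxb7, Hoxb9, Hoxc9, Hoxd9 and Hoxc13 did not pass, with differences of 0.19, 0.13, 0.04, 0.13 and -0.51. This comparison uses the same Hprt knockout arrays as the one with wild-type. All 27 feeder fibroblast markers rose, with a median of 4.01 and a summed linear intensity of 156000 to 157000 in the trap line and 15900 in the Hprt knockout, and their part in the Hox differences was not tested. Hoxa2 did not pass without trap replicate 1, trap replicate 2 or Hprt knockout replicate 1 (adjusted p = 0.107, 0.12 and 0.174), and Hoxa7 not without trap replicate 1 or Hprt knockout replicate 1 (0.134 and 0.108). Hoxb7 rose without trap replicate 2 (0.0262). Of all genes called, 38.9% were higher, and 52.5% under cyclic loess scaling, which shifts the median of all genes by 0.14.

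The exon 2 mutant was set against wild-type, to ask what differs with the exon 2 deletion of Gtf2i, on the wild-type arrays that the other comparisons with wild-type also use. Hox genes were lower or not distinguishable: 12 of the 25 tested fell, where 23.1% of all genes tested fell and 32.5% rose (55.5% changed). No Hox gene rose in limma's test, and 1, Hoxb13, had an unadjusted p under 0.05 upward (0.43 ± 0.18, adjusted p = 0.0763). The median over all 33 was -0.20, from -1.44 to 0.43, beside 0 over all genes. Hoxb2 was 2.72-fold lower (log2 -1.44 ± 0.07, adjusted p = 1.35e-05). The differences were -0.96 ± 0.12 for Hoxb6, -0.89 ± 0.11 for Hoxb3, -0.84 ± 0.15 for Hoxc8, -0.69 ± 0.10 for Hoxa5 and, tied to the filter, -0.74 ± 0.09 for Hoxb5. For Hoxc5, Hoxd8, Hoxb4, Hoxa10, Hoxc4 and Hoxd13, which also fell, they ran from -0.59 to -0.35.

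Hoxa9, with a difference of -2.76 in the Hprt knockout, differed by -0.20 in the exon 2 mutant, with a 95% interval from -0.52 to 0.13. Of the 27 feeder fibroblast markers 23 fell and Snai2 rose (1.01 ± 0.09), with a median of -0.46. Their summed linear intensity was 148000 to 151000 in the exon 2 mutant and 207000 to 208000 in wild-type, and their part in the Hox differences was not tested. Hoxb4 did not pass without wild-type replicate 2 (adjusted p = 0.0555), and Hoxc4 not without exon 2 mutant replicate 2 (0.0919) or wild-type replicate 2 (0.115). Hoxb13 rose without wild-type replicate 2 (0.0275), Hoxc13 rose without exon 2 mutant replicate 2 (0.0192) and Hoxb9 fell without wild-type replicate 1 (0.0117). Of all genes called, 58.4% were higher, and 47.7% under cyclic loess scaling.

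Fewest Hox genes changed between the trap line and wild-type. Of the 25 Hox genes tested 5 fell and 3 rose, where 14.6% of all genes tested fell and 26.5% rose (41.1% changed), so that the share of Hox genes changed was near that of all genes. The median over all 33 was -0.06, from -1.14 to 0.68, beside 0.02 over all genes. Hoxb2 fell by 1.14 ± 0.07 (adjusted p = 4.55e-05). The differences of the other genes that fell were -0.65 ± 0.11 for Hoxb3, -0.48 ± 0.09 for Hoxb5 (tied to the filter), -0.45 ± 0.10 for Hoxa5 and -0.42 ± 0.12 for Hoxb9. Hoxa11 rose by 0.68 ± 0.05 (adjusted p = 0.000127), Hoxa10 by 0.30 ± 0.07 and Hoxc6 by 0.19 ± 0.06. Hoxc8 differed by -0.37 ± 0.15 and did not pass (adjusted p = 0.0808).

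Among the feeder fibroblast markers 13 of 27 fell and 5 rose, with a median of -0.18 and a summed linear intensity of 156000 to 157000 in the trap line and 207000 to 208000 in wild-type, and their part in the Hox differences was not tested. Hoxa10 did not pass without trap replicate 2 (adjusted p = 0.0678), wild-type replicate 1 (0.0637) or wild-type replicate 2 (0.0654), and Hoxa5 not without trap replicate 2 (0.0521). Hoxb9 did not pass without trap replicate 1 (0.124), trap replicate 2 (0.0838) or wild-type replicate 2 (0.0879). Hoxc6 did not pass without trap replicate 1 (0.158), trap replicate 2 (0.0805) or wild-type replicate 1 (0.175). Hoxd10 rose without trap replicate 1 (0.0467). Hoxa11, Hoxb2 and Hoxb3 passed whichever of the arrays compared was left out. Of all genes called, 64.6% were higher, and 54.1% under cyclic loess scaling.

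**Figure D2:**
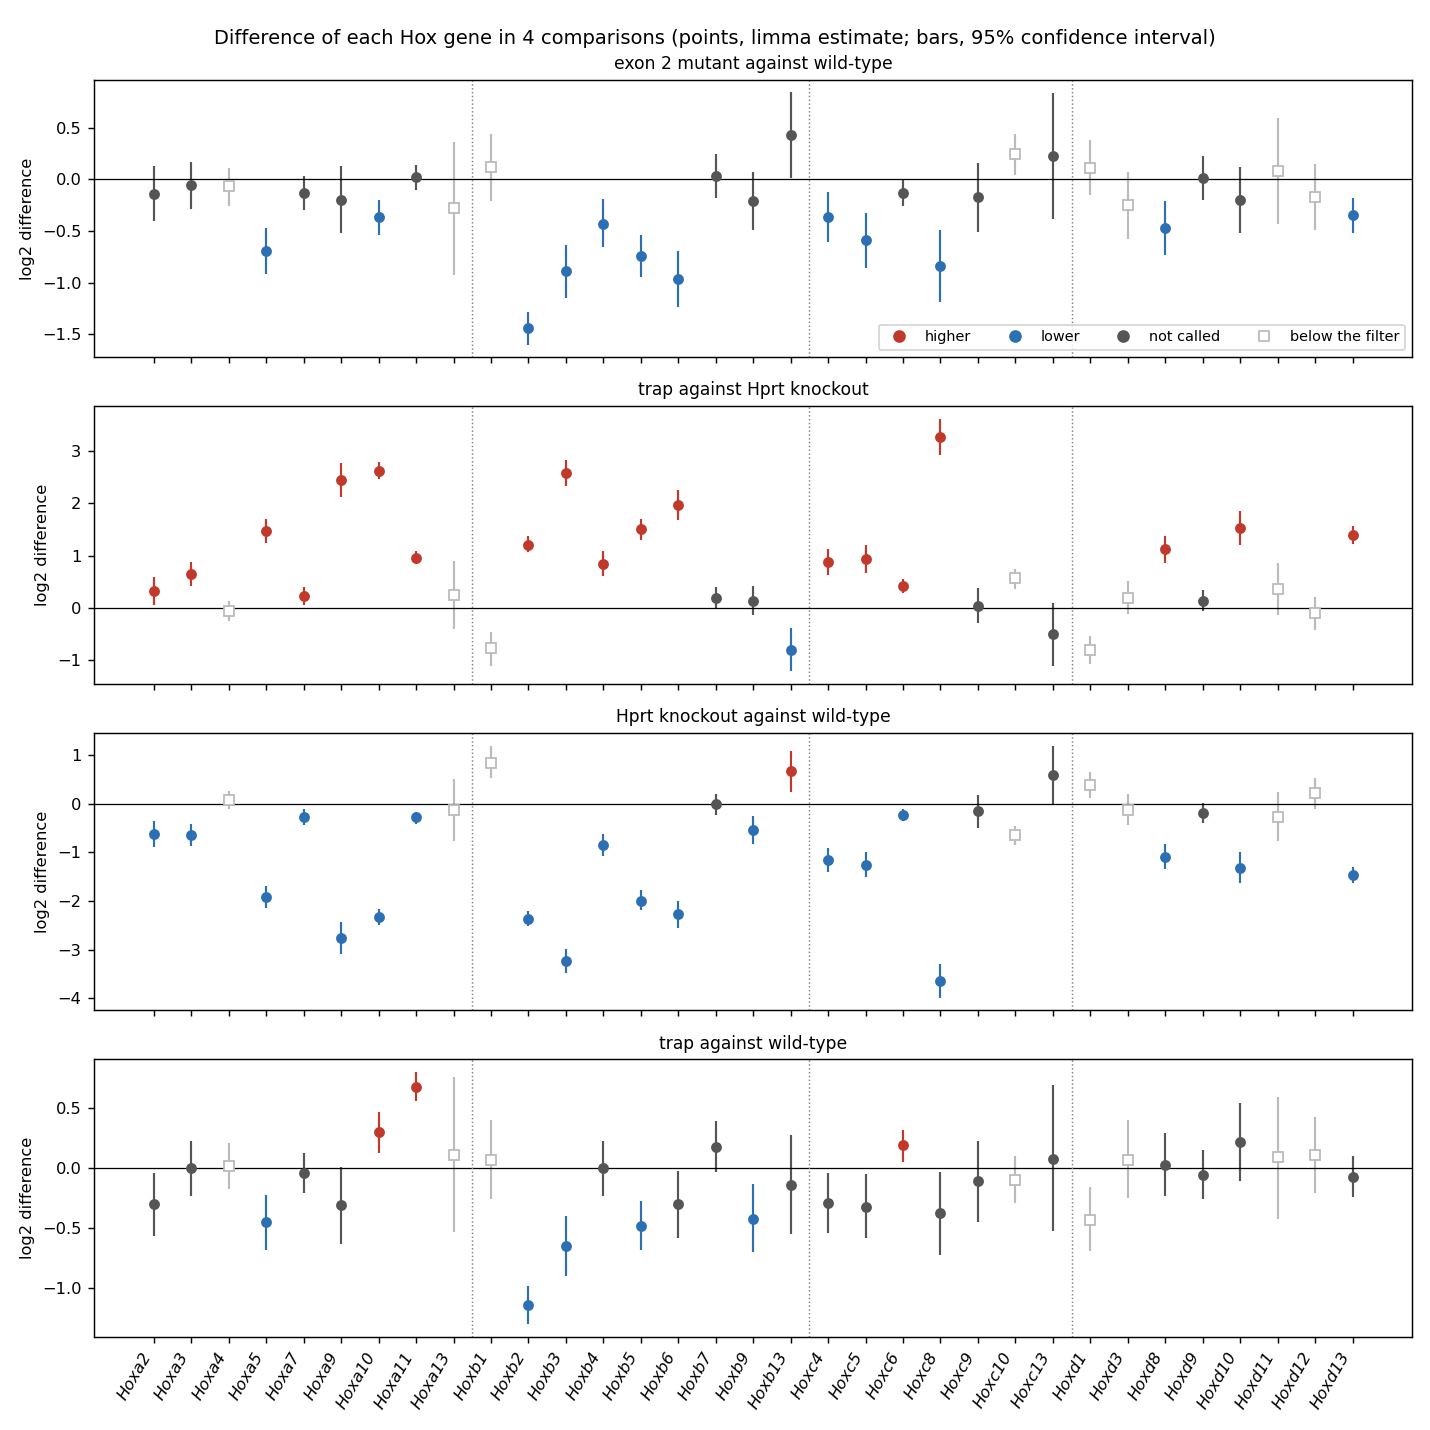
Log2 difference (y axis) of each Hox gene (x axis) in the 4 comparisons, as the limma estimate with its 95% confidence interval, with open squares for genes below the filter. In the Hprt knockout against wild-type 20 genes lie below 0 past the threshold, with Hoxc8 lowest at -3.65, and the scale of the y axis differs between panels.

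The difference of the exon 2 mutant from wild-type was then set against that of the trap line from the Hprt knockout, as a contrast in the same fit. The exon 2 mutant difference was the lower one for 19 of the 25 genes and the higher one for Hoxb13, where 27% and 42.6% of all genes tested were called these ways (69.7% called in all). The widest gaps were -4.11 ± 0.21 for Hoxc8 (adjusted p = 3.15e-06), -3.47 ± 0.15 for Hoxb3, -3.00 ± 0.10 for Hoxa10, -2.93 ± 0.16 for Hoxb6 and -2.66 ± 0.09 for Hoxb2. For each of these 5 genes the exon 2 mutant lay below wild-type and the trap line above the Hprt knockout. Hoxb7, Hoxb9, Hoxc9, Hoxc13 and Hoxd9 did not pass. Each mutation was measured in a line of its own and against controls of its own.

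Members of every cluster fell in the Hprt knockout. In the Hprt knockout against wild-type the median over all members was -0.62 for HoxA, -0.84 for HoxB, -0.65 for HoxC and -0.23 for HoxD. In the same order, 7 of 7, 6 of 8, 4 of 6 and 3 of 4 tested members fell. The medians include dim genes below the filter, since 7 of 9, 8 of 9, 6 of 7 and 4 of 8 members were tested. The tested HoxD genes differed by -1.46 (Hoxd13), -1.31 (Hoxd10), -1.09 (Hoxd8) and -0.19 (Hoxd9), so the HoxD median does not describe them. Against the Hprt knockout, the medians in the trap line were 0.64, 0.84, 0.56 and 0.27 in the same order. HoxB held 8 of the 25 genes tested. In the exon 2 mutant against wild-type the medians were -0.14, -0.43, -0.17 and -0.19, and HoxB held 5 of the 12 genes that fell. Between the trap line and wild-type they were 0, -0.30, -0.11 and 0.05, and 4 of the 5 genes that fell were of HoxB. Hoxb5, whose lower values against wild-type are tied to the filter, is counted among the falls in each comparison with wild-type. The differences between clusters were not tested.

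By paralogue number, the middle groups 4 to 8 had the largest medians over all members in 3 of the 4 comparisons. The exception was the trap line against wild-type, with medians of -0.30, -0.16 and 0.01 from anterior to posterior. These medians include dim genes below the filter, in unequal shares. Tested were 4 of 7 anterior, 11 of 12 middle and 10 of 14 posterior members, so the order need not hold among tested genes. In the Hprt knockout against wild-type the tested anterior genes differed by -3.23 (Hoxb3), -2.36 (Hoxb2), -0.64 (Hoxa3) and -0.62 (Hoxa2). The differences between paralogue groups were not tested. In the Hprt knockout against wild-type 4 of 4 tested anterior genes, 10 of 11 middle genes and 6 of 10 posterior genes fell, with medians over all members of -0.62, -1.12 and -0.27. Against the Hprt knockout, 4 of 4, 10 of 11 and 5 of 10 rose in the trap line, with medians of 0.32, 0.90 and 0.30. In the exon 2 mutant against wild-type 2 of 4, 8 of 11 and 2 of 10 fell, with medians of -0.14, -0.45 and -0.17. Over all members, the differences between the Hprt knockout and wild-type ran from -3.23 to 0.85 for the anterior genes, from -3.65 to 0.08 for the middle genes and from -2.76 to 0.67 for the posterior genes. The map by cluster and paralogue number sets these values side by side.

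**Figure D3:**
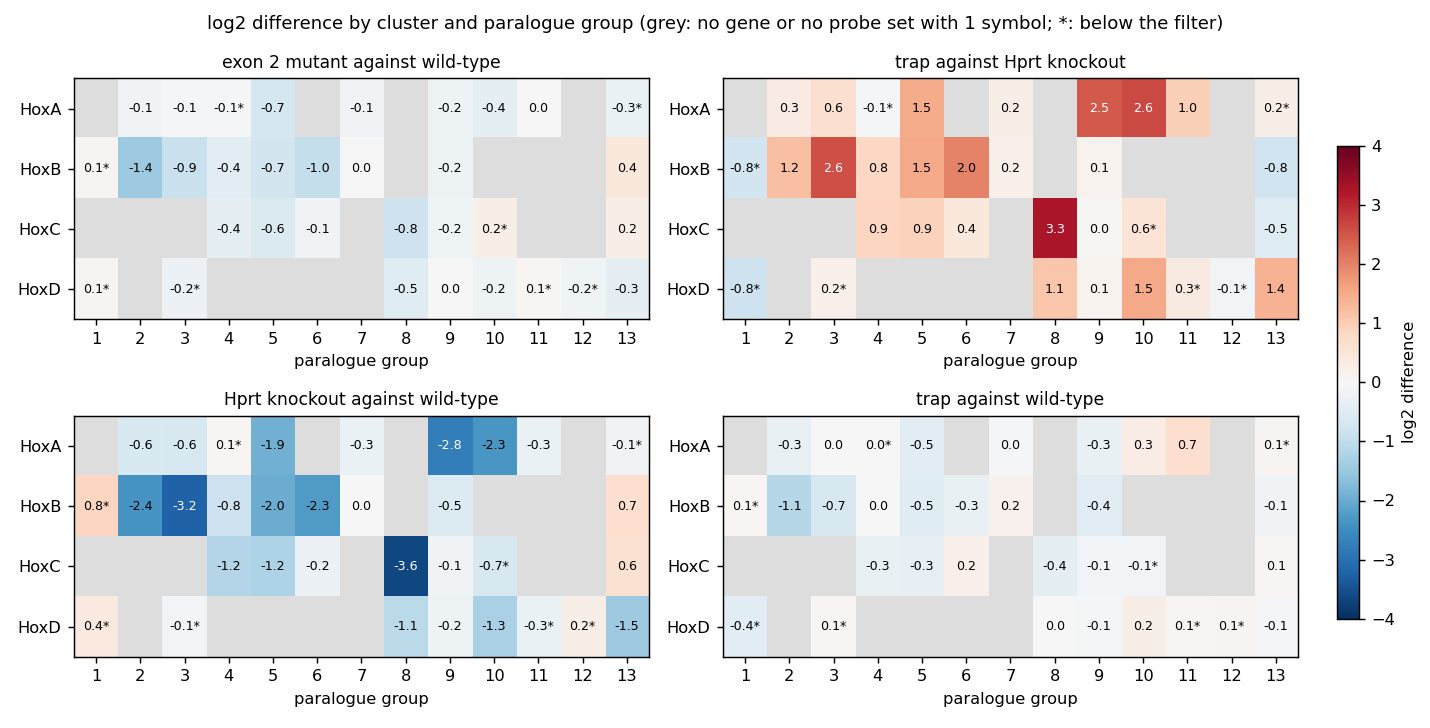
Log2 difference of each Hox gene by cluster (rows) and paralogue group (columns) in the 4 comparisons, with red for higher and blue for lower values, grey where there is no gene or no probe set with a single symbol, and a star for genes below the filter. The darkest cells of the panel of the Hprt knockout against wild-type are Hoxc8 at -3.65 and Hoxb3 at -3.23.

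The 8 genes below the filter were Hoxa4, Hoxa13, Hoxb1, Hoxc10, Hoxd1, Hoxd3, Hoxd11 and Hoxd12, and each lay below the 40th percentile on all 8 arrays. Their signal ran from log2 3.16 to 5.04 over the 8 arrays. When all genes were fitted without a filter, Hoxb1 was higher in the Hprt knockout than in wild-type (0.85 ± 0.14, adjusted p = 0.0014), at 4.33 and 4.06 in the Hprt knockout against 3.53 and 3.16 in wild-type. Hoxd1 was also higher (0.39 ± 0.11, adjusted p = 0.0214), at 4.30 and 4.34 in the Hprt knockout against 3.85 and 4.01 in wild-type. Hoxc10 was lower (-0.65 ± 0.08, adjusted p = 0.000423), at 3.83 and 3.78 in the Hprt knockout against 4.37 and 4.54 in wild-type. The same fit placed the trap line below the Hprt knockout for Hoxb1 (-0.78) and Hoxd1 (-0.82) and above it for Hoxc10 (0.56). Hoxb1 is known as an early target of retinoic acid.

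Second probe sets of a gene gave smaller differences in several cases. For Hoxa9 the other probe set differed by -0.39 between the Hprt knockout and wild-type and did not pass, against -2.76 on the brighter one, and by -0.02 between the trap line and the Hprt knockout, against 2.45. For Hoxa5 the values of the other probe set were -0.35 and 0, and for Hoxb3 -0.61 and 0.52, against -3.23 and 2.58. For Hoxd13 they were -0.18 and 0.46, and for Hoxa10, whose other probe set had a mean of only 3.72, -0.17 and 0.23. Hoxc5, at -1.25 and 0.93 on its brightest probe set, gave -0.60 and 0.14 on another and -0.01 and 0.01 on the last. For Hoxa3, at -0.64 and 0.64, the next brightest gave -0.52 and -0.13, and lay lower in the trap line than in wild-type (-0.66 ± 0.10), where the brightest differed by 0. Its other probe sets gave -0.23 and 0.04, and -0.05 and -0.08. The sizes of these 7 genes therefore hold for 1 probe set each. For Hoxc6 the other probe sets gave -0.28 and 0.43, and -0.29 and 0.48, against -0.23 and 0.42. Hoxd8 gave -0.78 and 0.84 on its other probe set, against -1.09 and 1.12 on the brighter one, and Hoxb4 gave -0.30 and 0.34, both called. Among the falls in the exon 2 mutant against wild-type, the other probe set of Hoxa5 was called (-0.42). Of Hoxc5 1 was called (-0.31) and 1 not (0.02). Those of Hoxb3 (-0.16, against -0.89), Hoxb4 (-0.16), Hoxd8 (-0.34), Hoxd13 (-0.07) and Hoxa10 (0.07) were not called. Between the trap line and wild-type that of Hoxa5 was called (-0.35). Those of Hoxb3 (-0.09, against -0.65), Hoxa10 (0.06) and Hoxc6 (0.20 and 0.15) were not. Hoxc5 and Hoxd13 were not called there on their brightest probe set. Another probe set was called lower for Hoxc5 (-0.46, against -0.32) and higher for Hoxd13 (0.28, against -0.07). When the probe sets of a gene were averaged, the Hprt knockout differed from wild-type by -1.57 for Hoxa9, -1.92 for Hoxb3, -1.14 for Hoxa5 and -0.62 for Hoxc5 and -0.82 for Hoxd13, all past the threshold, and Hoxa3 and Hoxa10 fell under the filter. Hoxc8, Hoxb2, Hoxb5, Hoxb6 and Hoxd10 had 1 probe set each.

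Transcription factors that mark the position of fibroblasts outside the Hox clusters were followed as a list of 26, of which 19 were tested. In the Hprt knockout against wild-type 14 fell and 1 rose, with a median over the list of -0.65, where 25.1% of all genes tested fell and 46.4% rose. The largest differences were measured for Tbx18 (-4.15 ± 0.10), Foxc2 (-3.94 ± 0.07), Prrx2 (-3.65 ± 0.07) and Foxd1 (-3.29 ± 0.11). Against the Hprt knockout, 14 rose and 1 fell in the trap line (median 0.76), where 26.6% and 41.8% of all did, with Prrx2 at 3.50 ± 0.07 and Tbx18 at 3.44 ± 0.10. In the exon 2 mutant against wild-type 11 fell and 2 rose (median -0.27), where 23.1% and 32.5% of all did. Between the trap line and wild-type 5 fell and 4 rose (median -0.06), where 14.6% and 26.5% of all did. Foxc2 read 7.65 and 7.54 in the exon 2 mutant, 7.33 and 7.41 in the trap line, 4.90 and 4.75 in the Hprt knockout and 8.78 and 8.76 in wild-type. Its Hprt knockout arrays, like those of Hoxc8, were below the 40th percentile. These factors are known from other cell types too, and their part in the Hox differences was not tested.

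**Figure D4:**
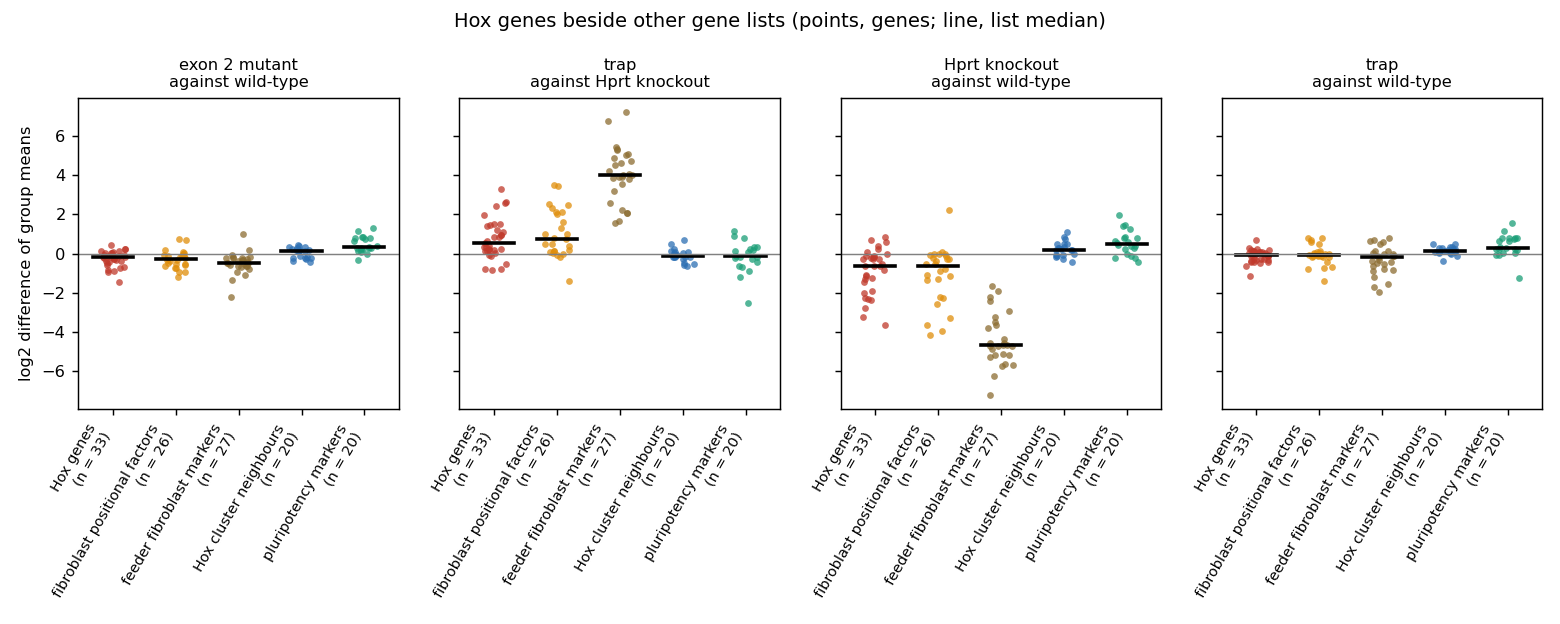
Log2 difference (y axis) of single genes, as points, and the median, as a line, for the 33 Hox genes and for 4 other lists (x axis) in the 4 comparisons. In the Hprt knockout against wild-type the medians are -0.62 for Hox genes, -0.65 for fibroblast positional factors and -4.69 for feeder fibroblast markers. They are 0.20 for genes around the clusters and 0.50 for pluripotency markers.

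Genes from the regions around the Hox clusters were also followed, not all of them adjacent to a cluster. Of the 20 neighbours 19 were tested, and against wild-type 12 rose in the Hprt knockout and the other 7 did not pass (median 0.20), where 46.4% of all genes tested rose and their median was 0.16. The largest differences were those of Chn1 (1.07 ± 0.12) and Snx11 (0.85 ± 0.08). In the trap line 7 fell and 3 rose against the Hprt knockout (median -0.13), where 41.8% and 26.6% of all did. Evx1, the homeobox gene at the end of HoxA, was among the rises at 0.71 ± 0.20. In the exon 2 mutant against wild-type 5 rose and 2 fell (median 0.14), where 32.5% and 23.1% of all did. In the trap line against wild-type 6 rose and 1 fell (median 0.15), where 26.5% and 14.6% of all did. Of 4 antisense transcripts in and beside the clusters, chosen after their values were seen, Hoxd3os1 (3.47 to 3.92) and Evx1os (3.43 to 3.98) lay below the filter on all 8 arrays. Hoxb5os differed by -2.46 ± 0.13 between the Hprt knockout and wild-type and by 1.78 ± 0.13 between the trap line and the Hprt knockout, and Hoxa11os by -0.73 ± 0.18 and 0.99 ± 0.18. Probes of such transcripts and of the genes opposite them may share sequence, which was not analysed here.

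The homeodomain partners of Hox proteins, from the Pbx, Meis and Pknox families, split. Of 8, 3 rose and 3 fell in the Hprt knockout relative to wild-type, where 46.4% and 25.1% of all genes tested did. Pknox2 (1.28 ± 0.07), Pbx4 (1.05 ± 0.13) and Pbx2 (0.72 ± 0.07) were higher and Meis1 was lower (-0.43 ± 0.16). Between the trap line and the Hprt knockout 5 fell and Meis1 alone rose (1.16 ± 0.16), where 41.8% and 26.6% of all did. In the exon 2 mutant against wild-type 2 rose, Pbx2 (0.29) and Pbx3 (0.27), and the other 6 did not pass. There 32.5% of all rose and 23.1% fell. In the trap line against wild-type 3 rose and Meis2 fell (-0.31 ± 0.05), where 26.5% and 14.6% of all did.

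Upstream regulators did not share 1 direction. A list of 10 regulators of Hox genes was followed, 6 of them tested. Egr2, the hindbrain regulator of Hoxa2 and Hoxb2, read 4.89 and 4.84 in the exon 2 mutant, 4.77 and 4.97 in the trap line, 4.88 and 4.44 in the Hprt knockout and 8.80 and 8.94 in wild-type. It passed the filter only through the wild-type arrays, as did Cdx1 (-0.56 ± 0.14 in the Hprt knockout relative to wild-type), so that their lower values elsewhere are tied to the filter. Nr6a1 (1.33 ± 0.08) and Gbx2 (1.16 ± 0.09) rose in the Hprt knockout relative to wild-type, and Nr6a1 fell by 1.21 ± 0.08 in the trap line relative to the Hprt knockout. Of 16 genes of the retinoic acid pathway 7 rose and 7 fell in the Hprt knockout against wild-type. Of all genes tested 46.4% rose and 25.1% fell there. Crabp1, which binds retinoic acid in the cell, fell by 2.38 ± 0.05, the degrading enzyme Cyp26b1 fell by 1.92 ± 0.13, the binding protein Crabp2 fell by 1.40 ± 0.08 and the receptor Rarb rose by 1.37 ± 0.13. Of the same 16 genes 7 rose and 7 fell in the trap line against the Hprt knockout, with Crabp1 at 4.30 ± 0.05. There 26.6% of all rose and 41.8% fell.

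Polycomb and trithorax genes, which hold the clusters silent or active, were counted next. In the Hprt knockout against wild-type 15 of 27 Polycomb genes rose and 7 fell (median 0.27), led by Phc1 (1.72 ± 0.05), and 8 of 11 trithorax genes rose and 3 did not pass (median 0.31), led by Ash2l (0.72 ± 0.05). Between the trap line and the Hprt knockout 16 Polycomb genes fell and 6 rose, and 6 trithorax genes fell and 1 rose. In the exon 2 mutant against wild-type 12 Polycomb genes rose and 6 fell, and 10 trithorax genes rose and 1 did not pass. In the trap line against wild-type 9 Polycomb genes rose and 4 fell, and 3 trithorax genes rose and 1 fell. Of all genes tested, 46.4% rose and 25.1% fell in the Hprt knockout, 26.6% and 41.8% for the trap line relative to it, 32.5% and 23.1% in the exon 2 mutant and 26.5% and 14.6% in the trap line relative to wild-type. The Polycomb counts lay near these shares in the Hprt knockout, and likewise for the trap line relative to wild-type. Among all genes called in the Hprt knockout relative to wild-type, 64.9% were higher, and 49.9% under cyclic loess. The Polycomb and trithorax genes were not counted under that scaling.

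Markers of other cell types that a culture could hold were followed as well. Of 20 pluripotency markers 15 rose and 3 fell in the Hprt knockout relative to wild-type (median 0.50), where 46.4% of all genes rose. For the exon 2 mutant 16 rose and 1 fell (median 0.32), where 32.5% of all rose, and for the trap line 14 rose and 1 fell (median 0.30), where 26.5% of all rose. Of 12 mesoderm markers, 10 of them tested, 3 fell in the Hprt knockout against wild-type, led by Bmp4 (-2.37 ± 0.06), and 7 did not pass. Of all genes tested 25.1% fell and 46.4% rose in this comparison, which the next lists share. Of 14 neural progenitor markers, 10 of them tested, 4 fell and 2 rose there, with Zic1 at -5.10 ± 0.14, Irx3 at -2.33 ± 0.06 and Sox1 at 1.91 ± 0.28. Sox1 lay above the 40th percentile on both arrays in the Hprt knockout alone, so its rise is tied to the filter. Of 10 endoderm markers, 8 of them tested, 5 rose and 1 fell. Of 8 macrophage markers, 4 of them tested, 2 fell, Cd14 (-1.63 ± 0.18) and Adgre1 (-0.60 ± 0.06), and 1, Cd68, rose (1.40 ± 0.10). The summed linear intensity was 910 to 958 in the Hprt knockout and 1960 to 1970 in wild-type for the mesoderm list, and 1380 to 1400 and 3380 for the neural list in the same order of groups. The part of these cell types in the Hox differences was not tested.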

How the data were processed

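Expression was measured in 8 samples, 4 groups of 2, on Affymetrix mouse arrays. The deposited values are log2 intensities of 45101 probe sets, which the authors made with RMA per the submitters' processing notes. The RMA version is not stated there. RMA fits all arrays to the same quantiles, which hides a change shared by most genes, and it compresses log2 differences of dim signals.

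Probe sets were named through the platform annotation, and the 64 controls and every probe set without exactly 1 symbol were left out. Each of 18193 genes was represented by its brightest probe set. All 33 Hox genes matched RefSeq by Entrez ID. A gene was tested when above the 40th percentile of its array (log2 5.33 to 5.39) on at least 2 arrays, which left 13819. With limma 3.58.1 in R 4.3.3, 4 group means were fitted to all 8 arrays (residual df 4, total df 6.86 after moderation). P-values were adjusted by Benjamini-Hochberg over all genes tested, with a threshold of 0.05. Errors are standard errors. On simulated data of the same size the fit recovered 99% of 200 genes changed by log2 -1 in the Hprt knockout. Each of the 33 Hox genes was named, and of each other list at most 4 members past the threshold with the largest difference per comparison. Alternatives were other filters, cyclic loess, a replicate block, fits to the compared arrays, averaged or separate probe sets, other variance priors and leaving out each array. The Hox genes, the lists and the tests were chosen with earlier results of these data known.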

Additional observations from a re-analysis of the deposited data

Results flagged for a closer look

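For 20 Hox genes the difference of the exon 2 mutant from wild-type and that of the trap line from the Hprt knockout were not alike, by limma's test of the contrast between both (adjusted p under 0.05). In log2 units, the contrast was -4.11 for Hoxc8, -3.47 for Hoxb3, -3.00 for Hoxa10, -2.93 for Hoxb6, -2.66 for Hoxb2, -2.65 for Hoxa9, -2.25 for Hoxb5 and -2.16 for Hoxa5. It was -1.74 for Hoxd13, -1.73 for Hoxd10, -1.59 for Hoxd8, -1.53 for Hoxc5, -1.27 for Hoxb4 and -1.23 for Hoxc4. The smaller contrasts were -0.94 for Hoxa11, -0.70 for Hoxa3, -0.55 for Hoxc6, -0.45 for Hoxa2 and -0.36 for Hoxa7. Hoxb13 alone had a positive one, of 1.23, which is tied to the filter through its Hprt knockout arrays. The contrast of Hoxb5 is tied to the filter through its wild-type arrays. All 27 feeder fibroblast markers had a contrast of the same sign as most Hox genes, with a median of -4.79. Of all genes tested, 69.7% were called in this contrast. Hoxa2 did not pass when either exon 2 mutant array, either trap array, Hprt knockout replicate 1 or wild-type replicate 2 was left out, with adjusted p from 0.0585 to 0.109.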

How the results depend on the processing

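With 2 arrays per group, each call rests on few arrays, and the depth of an array experiment is its signal over background, for which no detection calls were used here. Of 1530 values of single Hox genes under the alternatives 1457 kept their side of the threshold, 49 no longer passed and 24 newly passed. No called value changed sign, and the sign of values not called was not followed. The counts that moved were small. Without a filter 3 Hox genes were lower in the trap line than the Hprt knockout and 3 higher in the Hprt knockout than wild-type, since Hoxb1 and Hoxd1 were then tested. With a filter at the array median both counts were 0 by limma, since Hoxb13 was then not tested (at an unadjusted p under 0.05, 0 and 1), and 3 genes were lower in the trap line than wild-type. With each probe set tested separately, an alternative chosen after seeing the data, both counts were 3. In fits to the compared arrays only, both were 2, since Hoxc13 also passed, and 9 genes were lower in the trap line than wild-type. With trend and robust priors 2 were higher in the Hprt knockout than wild-type and 1 higher in the trap line than wild-type, and averaged probe sets also left 1 there. Where no construction is named, the cause was not tested.

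When each array was left out in turn, the genes higher in the exon 2 mutant than wild-type numbered 0 to 1, those higher in the Hprt knockout than wild-type 0 to 1, those higher in the trap line than wild-type 1 to 3 and those lower there 3 to 5. The genes lower in the exon 2 mutant than wild-type numbered 10 to 13, those higher in the trap line than the Hprt knockout 17 to 19, and those lower in the Hprt knockout than wild-type 19 to 20. Where a group then held 1 array, that array was taken to vary like the other groups. The labels share replicate numbers, but same-numbered arrays did not deviate together (correlations of -0.275 to 0.175), so the numbers do not pair the arrays. With the replicate block, Hoxa2 (-0.30, adjusted p = 0.0444) and Hoxa9 (-0.31, adjusted p = 0.0444) passed between the trap line and wild-type and Hoxc6 (0.19, adjusted p = 0.0589) did not, and no other call changed. Cyclic loess moved the median of the tested Hox genes from -1.09 to -1.22 for the Hprt knockout set against wild-type, and no called direction changed.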
